A study of Saccharomyces cerevisiae with 16 samples.

Results

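The 79 genes described here encode proteins of the cytosolic ribosome in *Saccharomyces cerevisiae* and have an intron that interrupts the coding sequence (CDS). They were chosen by name, from the ribosomal protein (RP) genes that have both a CDS count and an intron count. *RPL7A/B*, *RPL22A/B*, *RPS14A/B*, *RPS9A/B*, *RPL30*, *RPS22B*, *RPS26A/B*, *RPS29A* and *RPL24A* were left out by name, several of which are known to control their own splicing or to carry an intron in the 5′ untranslated region. The members are 79 of 6697 CDS, 79 of the 273 nuclear genes with a counted CDS intron, and 79 of 137 RP genes. They comprise 48 genes of the large subunit, including the stalk protein gene *RPP1B*, and 31 of the small subunit. Of them, 74 form 37 pairs of paralogues (ohnologues, named A and B), 4 are single-copy (*RPL25*, *RPL28*, *RPL39* and *RPS13*) and *RPP1B* has a partner without an intron.

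RNA was taken from 8 samples of yeast grown in rich medium (YPD), and from every sample a library of polyadenylated RNA and one of ribo-depleted RNA were sequenced, 16 libraries in all. LiCl at its IC50, the concentration labelled as giving 50% growth inhibition, was applied to wild-type (WT) cells, to an RPS22B-GFP strain whose 5′ UTR intron of *RPS22B* was deleted, and to RPS22B-GFP cells that were sorted into GFP-high and GFP-low populations. The cultures without LiCl were WT cells in 0.4 M NaCl, in 20% glucose, in myriocin at its IC50 (0.32 µg/ml) and in fenpropimorph at its IC50 (0.85 µM). According to the labels, cultures were re-inoculated every 8 h over 24 h, whereas the study's methods give the sorted cells a shorter exposure to LiCl. The ribo-depleted sorted libraries carry HOdelta::TDH3pr-mCherry-natMX4 in their genotype label and the polyadenylated ones do not, although both types were described as made from the same RNA. A culture without a stressor was not analysed here. There was 1 library per condition and library type, so no difference has a replicate check and no p-value is given. The 4 LiCl libraries of a type differ in strain, sorting and exposure and are not replicates.

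RP genes are among the most strongly transcribed genes of growing yeast, and their mRNAs are lowered together when growth slows. Only a small fraction of yeast genes has an intron, but most of the duplicated RP genes do, so that RP transcripts take up a large part of the work of the spliceosome. The spliceosome recognises the 5′ splice site, a branch site whose adenosine forms the lariat, and the 3′ splice site, and the excised lariat is then debranched and degraded. Polyadenylated libraries hold transcripts with a poly(A) tail, spliced or not, while ribo-depleted libraries also hold nascent transcripts, decay intermediates and excised introns.

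Reads counted on CDS ran from 29557254 to 50337762 in the polyadenylated and from 36377857 to 53234402 in the ribo-depleted libraries. Strain markers separated the libraries by background. *HIS3* and *LYS2* had at most 1 and 5 reads in the intron-deletion and sorted libraries, against at least 1120 and 4741 in the 5 WT cultures of each type, whereas *MET17* had 1225 to 40541 reads in the intron-deletion and sorted libraries, against at most 1 in the WT cultures. Strain and treatment can therefore not be told apart between the sorted or intron-deletion libraries and the WT cultures. The sorted libraries also stood apart in level, since the members took 0.196% of CDS reads in high and 0.214% in low cells among polyadenylated reads, against 2.06% in the WT LiCl culture and 5.36 to 9.56% in the 4 cultures without LiCl. In ribo-depleted RNA the shares were 0.189% and 0.191% in the sorted cells, 0.327% in WT LiCl, and 1.21 to 4.48% without LiCl.

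Few reads lay in the introns of the sorted cells. The median read density of the 79 introns (reads per bp) lay at percentile 7.93 of the densities of all CDS in high and 6.82 in low cells in polyadenylated RNA, and at 7.90 and 8.30 in ribo-depleted RNA. In WT LiCl it lay at percentile 42.5 and 38.4 of polyadenylated and ribo-depleted CDS densities. Glucose (9.18 and 13.3) and fenpropimorph (10.7 and 12.6) were low as well, and NaCl (46.2 and 51.0) and myriocin (32.4 and 38.0) were not. In the sorted cells 20 to 26 members had an intron density under the 5th percentile of CDS densities, and 46 to 51 under the 10th.

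**Figure D1:**
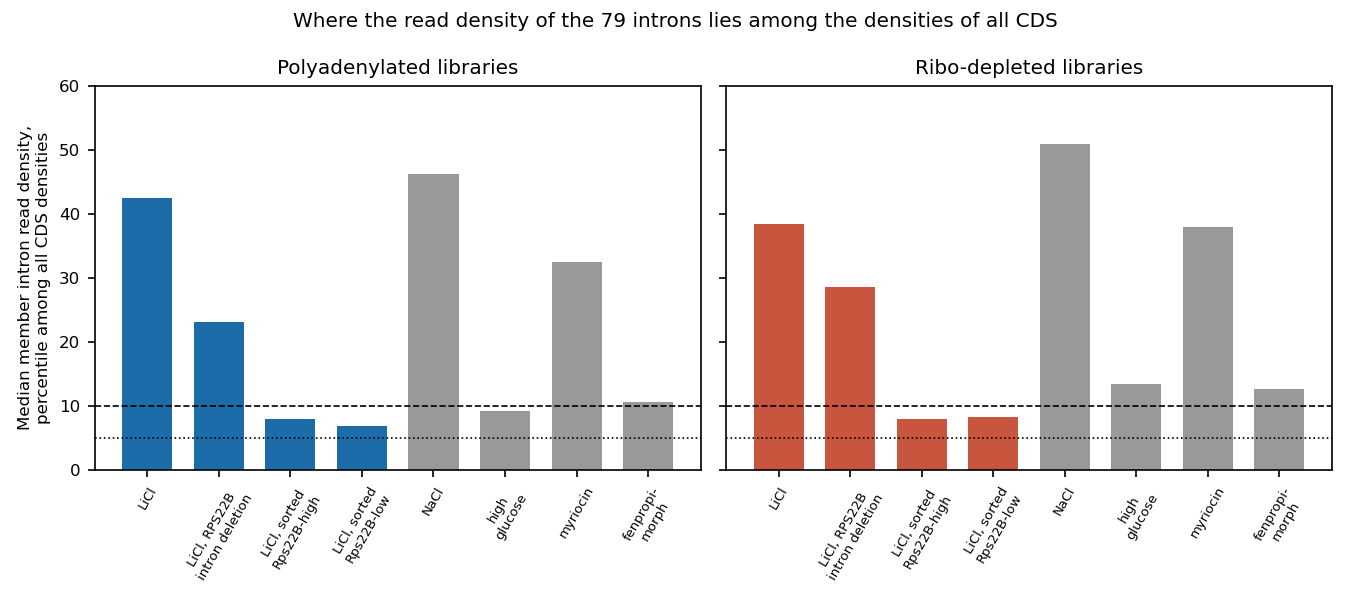
Percentile that the median read density of the 79 introns takes among the read densities of all CDS (y axis) in each of the 8 libraries of a type (x axis), with polyadenylated libraries on the left and ribo-depleted on the right. Coloured bars are LiCl libraries, grey bars the others, and the dashed line marks the 10th and the dotted line the 5th percentile; the sorted libraries lie between 6.82 and 8.30, against 42.5 and 38.4 for WT LiCl.

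The member introns are long for yeast, with 147 to 561 bp and a median of 405 bp, against a median of 99 bp in 176 other genes with a single CDS intron. They lie near the start of the gene: the coding part of exon 1 has a median of 19 bp, 50 members have at most 30 bp there, and 16 have at most 3 bp. GTATGT is the 5′ splice site of 62 members (78.5%, against 70.5% of the other introns), GTACGT of 10, GTATGA of 4 (*RPS11A*, *RPS11B*, *RPS6A* and *RPL43A*), GTATGC of *RPL40A* and *RPL43B*, and GTGAGT of *RPL20A*. The branch site TACTAAC was found on the sense strand in 77 introns, or 97.5%, against 76.7% of the other introns, and the exceptions were *RPL19A* and *RPS21A*. Introns end in TAG in 42 members and in CAG in 37. No member intron overlaps another annotated feature, and none shares an exact stretch of 100 bp with another place in the genome. By contrast, 18 members (9 pairs) share such a stretch in their CDS, and 8 members (*RPL21A*, *RPL28*, *RPL39*, *RPS27A*, *RPL36A*, *RPL36B*, *RPL33A* and *RPL43A*) have a CDS that overlaps another CDS entry, so their CDS counts depend on how shared reads were assigned.

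*RPL18B*, the most retained member in LiCl by its rank over both library types, has its intron at chrXIV:64019-64450 (minus strand, 432 bp) in the R64 genome, and its splice signals are shown because several values below turn on this gene. Each line runs 5′ to 3′ on the sense strand, with the 5′ splice site, the branch site or the 3′ splice site in capitals.
RPL18B start of intron: GTATGTattgaaatctccct
RPL18B branch site: cctttatcccttTACTAACataacgtaaaa
RPL18B end of intron: ttttcttgtcttaatcaCAG
The branch adenosine lies 40 bp from the end of this intron, beside a median of 38 bp over the members with the motif.

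Splice signals of the other members that recur below are given for comparison, with capitals as before. *RPS0A* (chrVII:920665-921119, plus strand) had the largest change in LiCl by its smallest ratio over myriocin and fenpropimorph in both library types, its paralogue *RPS0B* (chrXII:242322-242680, plus strand) and *RPS7A* (chrXV:505938-506338, plus strand) differed between library types in LiCl, *RPS21A* (chrXI:551681-552002, plus strand) lacks the TACTAAC motif, and *RPL36A* (chrXIII:651161-651623, plus strand) has one of the highest retention levels.
RPS0A branch site: ttgaatcttttaTACTAACtttttcttctt
RPS0B branch site: aatgaacgctctTACTAACataatttatct
RPS7A branch site: cctaatcaaactTACTAACattttcctttt
RPL36A branch site: tatttcacatgtTACTAACtgaagacaacc
RPS0A end of intron: cttctttaattttgtttCAG
RPS0B end of intron: tctttcctctcttttttTAG
RPS21A start of intron: GTATGTtcgagaaatctata
RPS21A end of intron: aaagatttgttttacatCAG

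Intron retention, taken as intron reads per bp over CDS reads per bp and given in percent, was high in LiCl and low in all 4 cultures without it. Its median over the 79 members in polyadenylated RNA was 7.21% in WT LiCl (95% order-statistic interval 6.58 to 7.81), 5.66% in the intron deletion, 20.8% in sorted high and 18.4% in sorted low cells, against 1.09% in NaCl, 0.501% in glucose, 1.10% in myriocin and 0.600% in fenpropimorph. In ribo-depleted RNA it was 18.5% (13.8 to 19.8), 15.7%, 14.2% and 14.8% in the same LiCl libraries, against 2.21% in NaCl, 1.63% in glucose, 2.48% in myriocin and 1.32% in fenpropimorph. Single members spread widely around these medians, from 2.67% for *RPL35A* to 34.0% for *RPL18B* in the polyadenylated and from 3.75% for *RPS4B* to 94.6% for *RPS0B* in the ribo-depleted WT LiCl library. For 79 of 79 members the lowest of the 4 polyadenylated LiCl libraries lay above the highest of the 4 others, and 67.3% of the 272 introns tested did so. In ribo-depleted RNA 78 of 79 members did, against 58% of 262 introns, and the exception was *RPL18B*. With a background density at the 5th percentile of CDS densities subtracted, which was tried after the data had been seen, the counts of members were 46 in each library type. That count was not made over all introns. Without the sorted libraries the counts of members were 79 and 78, against 197 of 272 and 161 of 262 introns tested.

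**Figure D2:**
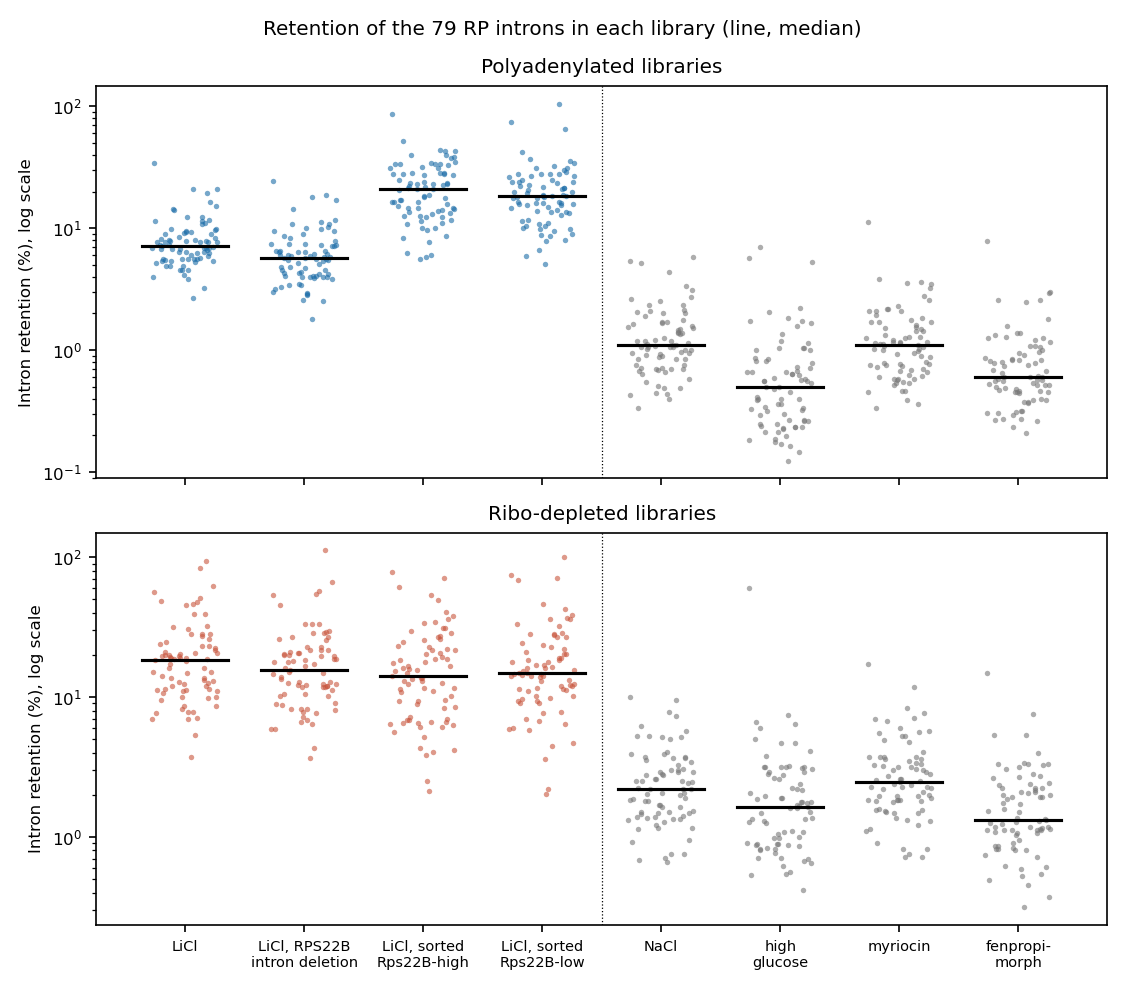
Intron retention in percent on a log scale (y axis) in each library (x axis), with 1 point per member, polyadenylated libraries above and ribo-depleted below, coloured for LiCl and grey for the other cultures; black lines are medians. The medians of the 4 LiCl libraries lie between 5.66% and 20.8%, and those of the others between 0.501% and 2.48%.

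Set against each other culture, retention in WT LiCl was higher for nearly every member. Over NaCl the median log2 ratio was 2.75 in polyadenylated RNA (2.53 to 2.92) and 2.83 in ribo-depleted RNA (2.75 to 2.97), and 78 and 79 of 79 members were at least 2-fold higher, against 68% and 59.2% of all introns. Over glucose it was 3.98 and 3.43, with 78 members at least 2-fold higher in each type, against 78.3% and 71.4% of all introns. Over myriocin it was 2.82 and 2.73, with 79 members in each type, against 60.3% and 48.5%, and over fenpropimorph it was 3.50 and 3.48, again with 79 members, against 69.9% and 58.8%. Across the 8 comparisons 77 members were at least 2-fold higher each time, and the exceptions were *RPS13*, at 0.77 over NaCl and 0.34 over glucose in polyadenylated RNA, and *RPL18B*, at −0.10 over glucose in ribo-depleted RNA. Passing in all 8 comparisons was not counted over all introns. The 4 ratios share the LiCl library and are not independent of each other.

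The introns of genes that do not encode RPs were more retained in level and changed less. Their median retention was 32.3% in polyadenylated WT LiCl, against 8.52 to 18.9% in the cultures without LiCl, and in ribo-depleted RNA it was 47.8%, against 19.7 to 37.0%. Their median log2 ratios for LiCl were 1.11 over NaCl, 2.04 over glucose, 0.74 over myriocin and 1.10 over fenpropimorph in the polyadenylated libraries (183 introns), and 0.59, 1.18, 0.23 and 0.67 in the ribo-depleted ones (173 introns). The 10 RP introns left out by name had medians between those of these introns and the members in every comparison. In polyadenylated RNA they were 1.63 over NaCl, 2.4 over glucose, 2.51 over myriocin and 2.6 over fenpropimorph. In ribo-depleted RNA they were 2.32, 1.86, 2.49 and 3.1. In each comparison 8 to 10 of the 10 were at least 2-fold higher in LiCl. No test between these groups of introns was possible with single libraries. The members' introns are longer than those of genes that do not encode RPs, and the members' genes are far more expressed.

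The ratio was separated into its parts by scaling CDS and intron reads with the same effective library sizes. CDS levels of the members were lower in LiCl throughout. In polyadenylated RNA the median log2 change was −2.63 against NaCl, −1.46 against glucose, −2.34 against myriocin and −1.68 against fenpropimorph, and at least 2-fold lower levels were found for 79, 68, 79 and 74 members, against 18.3%, 16.2%, 14.7% and 11.9% of 6640 CDS. In ribo-depleted RNA the medians were −3.38, −1.88, −2.78 and −2.36, with 79, 74, 79 and 78 members at least 2-fold lower, against 20.5%, 17%, 15.1% and 13.6% of 6616 CDS. For all 79 members the CDS level was the lowest of the 5 WT cultures in LiCl and the highest in NaCl, in both library types. This ordering was not counted over all CDS. The 36 RP genes without an intron gave medians of −2.73, −1.41, −2.50 and −1.76 in polyadenylated and −3.45, −1.83, −2.87 and −2.53 in ribo-depleted RNA, and their intervals overlapped those of the members in all 8 comparisons.

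Intron reads did not follow the CDS. Against NaCl their median change in LiCl was 0.12 in polyadenylated and −0.55 in ribo-depleted RNA, and 2 members in each type were at least 2-fold higher, against 35.7% and 22.1% of all introns. Against myriocin it was 0.48 and −0.01, with 7 and 4 members at least 2-fold higher, against 25.4% and 13.4%. In these comparisons the medians of the intron changes were small beside those of the CDS. Against glucose the introns themselves were higher, with medians of 2.55 and 1.58 and 75 and 67 members at least 2-fold higher, against 76.8% and 61.8% of all introns, and so were they against fenpropimorph, with 1.82 and 1.19 and 72 and 55 members, against 62.9% and 39.7%. Members moved together in CDS and apart in introns: over the 8 comparisons the SD between members was 0.30 to 0.41 for CDS and 0.54 to 0.83 for intron changes. Only 13 members had higher intron levels in LiCl in all 8 comparisons, and this was not counted over all introns.

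**Figure D3:**
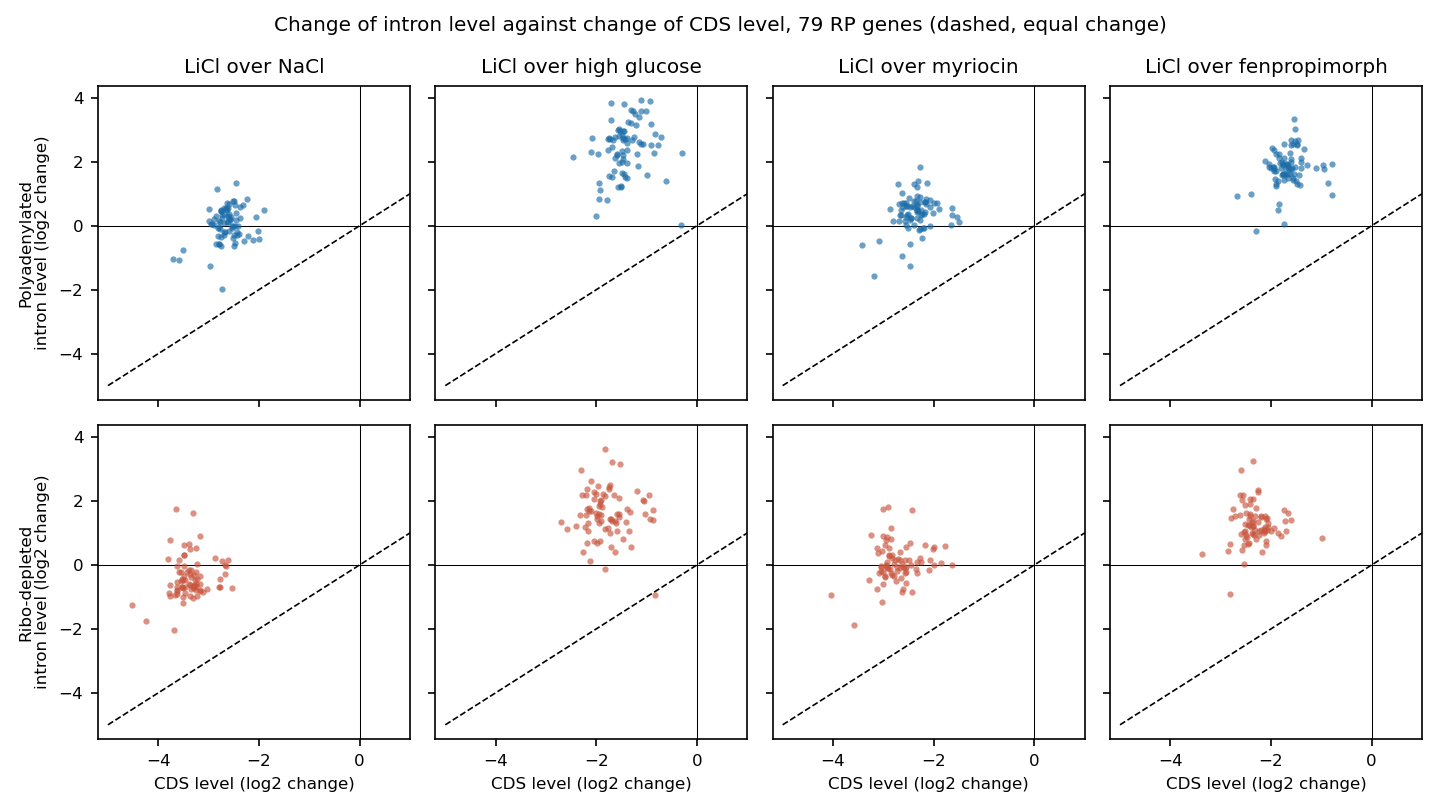
Log2 change of the intron level (y axis) against log2 change of the CDS level (x axis) in WT LiCl over each of the 4 other WT cultures (columns), polyadenylated above and ribo-depleted below, 1 point per member; on the dashed line both changed equally. All points but that of RPL18B over glucose in ribo-depleted RNA lie above the dashed line, with intron medians from −0.55 to 0.48 over NaCl and myriocin and from 1.19 to 2.55 over glucose and fenpropimorph.

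*RPL18B*, which encodes a protein of the large subunit, was the most retained member in LiCl by the rank over both library types. In polyadenylated RNA its retention was 34.0% in WT LiCl (466 intron and 1779 CDS reads), 24.6% in the intron deletion, 86.6% in sorted high and 74.5% in sorted low cells, against 5.38% in NaCl, 5.74% in glucose, 11.2% in myriocin and 7.80% in fenpropimorph. It was 56.3%, 54.0%, 77.8% and 74.9% in the ribo-depleted LiCl libraries, against 9.96% in NaCl, 60.5% in glucose, 17.1% in myriocin and 14.9% in fenpropimorph. The ribo-depleted glucose library thus overlapped the LiCl libraries, on 283 intron and 608 CDS reads. *RPL18B* was also the member with the lowest mean CDS level per kb over the polyadenylated WT cultures, with 61.9 CPM per kb in LiCl, against 803 in NaCl, 76.2 in glucose, 565 in myriocin and 305 in fenpropimorph, so that glucose lay close to LiCl.

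*RPL36A* and *RPL16A*, also of the large subunit, followed. *RPL36A* had 20.8% in polyadenylated WT LiCl, 18% in the intron deletion, 34.6% and 27.8% in sorted high and low cells, against 4.34% in NaCl, 1.83% in glucose, 3.55% in myriocin and 2.49% in fenpropimorph. *RPL16A* had 14.4%, 10.9%, 39.9% and 37.2% in these LiCl libraries, against 2.33% in NaCl, 0.848% in glucose, 2.17% in myriocin and 1.27% in fenpropimorph. For both genes the LiCl libraries lay above all others. *RPL36A* and *RPS7B* were, after *RPL18B*, the members with the lowest CDS level per kb in polyadenylated RNA, 262 and 307 CPM per kb in polyadenylated WT LiCl.

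*RPL35A* and *RPL40B* were among the 3 least retained members in LiCl. *RPL35A* and *RPL35B* share 76.9% of their 100-bp CDS stretches, and with *RPL39* they had the highest CDS levels per kb in polyadenylated RNA. *RPL35A* retention in polyadenylated RNA was 2.67% in WT LiCl, 1.81% in the intron deletion, 6.08% and 8.63% in sorted high and low cells, against 0.399% in NaCl, 0.124% in glucose, 0.389% in myriocin and 0.207% in fenpropimorph. Its CDS level was 1389 CPM per kb in LiCl, against 8278 in NaCl, 4569 in glucose, 6861 in myriocin and 4684 in fenpropimorph. *RPL40B*, whose product is made as a fusion of ubiquitin to a ribosomal protein, had 5.32% in polyadenylated and 5.39% in ribo-depleted WT LiCl, against 0.164 to 0.701% and 0.456 to 0.758% in the cultures without LiCl.

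The largest changes by the smallest ratio over myriocin and fenpropimorph in both types were those of *RPS0A*, *RPL13B* and *RPS21B*. *RPS0A*, which encodes a small-subunit protein needed for the maturation of that subunit, had a retention of 5.33% in polyadenylated WT LiCl, against 0.336% in NaCl, 0.412% in glucose, 0.332% in myriocin and 0.269% in fenpropimorph. In ribo-depleted RNA it had 19.6%, against 1.13%, 0.891%, 1.57% and 0.860% in these cultures. The log2 ratio over myriocin was 4.0 (95% counting interval 3.74 to 4.27) and 3.64 (3.37 to 3.92) in polyadenylated and ribo-depleted RNA, on 453 and 295 intron reads in LiCl. *RPL13B* changed by 3.65 and 3.48 over myriocin and by 4.41 and 4.25 over fenpropimorph, and *RPS21B*, whose product binds the Rps0 protein, by 3.27 and 4.15 and by 3.90 and 4.55.

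The smallest changes by the same comparisons were those of *RPS27A*, *RPL18B* and *RPS10A*. *RPS27A* had 9.94% in polyadenylated WT LiCl, against 3.11% in NaCl, 1.66% in glucose, 3.21% in myriocin and 2.95% in fenpropimorph, and in ribo-depleted RNA 8.69%, against 2.46%, 1.77%, 2.82% and 2.42%. Its ratio over myriocin was 1.63 (1.50 to 1.76) and 1.62 (1.40 to 1.85), and its CDS fell less than that of any other member against myriocin and fenpropimorph, by 1.51 and 0.78 on the log2 scale in polyadenylated RNA. *RPS10A* changed by 1.82 and 1.59 over myriocin and by 2.53 and 2.57 over fenpropimorph. Members that were already retained without LiCl changed least: across the 79 members Spearman's rho between the LiCl ratio and the retention in the culture it was set against was −0.69 to −0.86 in the polyadenylated and −0.32 to −0.55 in the ribo-depleted libraries. That retention is the denominator of the ratio, so part of this correlation comes with the arithmetic.

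Among the single-copy members, *RPL25* and *RPL39*, whose products lie at the tunnel through which new proteins leave the ribosome, behaved like most of the members, and *RPL28* and *RPS13* did not. *RPL25* had 5.48% in polyadenylated WT LiCl, against 0.712% in NaCl, 0.245% in glucose, 0.597% in myriocin and 0.307% in fenpropimorph. *RPL39* had 4.57%, against 0.509%, 0.214%, 0.571% and 0.313%. *RPL28* was retained at 21.1%, against 5.76%, 5.25%, 3.50% and 3.02%, with 5089 intron reads in LiCl, the most of any member. *RPS13* had 8.89%, against 5.22% in NaCl, 7.05% in glucose, 3.81% in myriocin and 2.56% in fenpropimorph. Its intron level fell by 2.0 against NaCl and by 1.24 against myriocin, and its changes against glucose and fenpropimorph were 0.01 and 0.05, so the higher ratio came with a lower CDS level alone. In ribo-depleted RNA *RPS13* had 19.8%, against 6.21%, 6.04%, 5.50% and 3.31%, and *RPL28* 20.7%, against 2.93%, 3.08%, 2.25% and 2.01%.

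Retention of the members was mostly lower in the polyadenylated than in the ribo-depleted library of the same RNA. Both parts of the ratio had lower medians in ribo-depleted RNA in each WT culture. In WT LiCl the median intron level was 6.94 CPM in ribo-depleted and 15.9 CPM in polyadenylated RNA, and the median CDS level was 45.1 and 219 CPM. Retention in the polyadenylated library was lower for 73 of 79 members in WT LiCl, 75 in the intron deletion, 67 in NaCl, 75 in glucose, 72 in myriocin and 70 in fenpropimorph. In the sorted cells it was lower for 25 members in high and 31 in low cells and higher for 54 and 48. Across members, the log2 retention in the library types had a Pearson's r of 0.34 (LiCl) to 0.56 (fenpropimorph). Spearman's rho was 0.34 (intron deletion) to 0.51 (fenpropimorph), so the order of members in 1 type was only partly kept in the other. In 6 members (*RPS21A*, *RPL23A*, *RPL6A*, *RPS24A*, *RPL31A* and *RPL2B*) ribo-depleted retention exceeded polyadenylated retention by at least 2 log2 units in each of the 5 WT cultures. *RPS21A*, which lacks the TACTAAC motif, had the widest gap, 83.4% in ribo-depleted WT LiCl beside 5.68% in the polyadenylated library, with 9.56% beside 0.847% in NaCl, 6.38% beside 0.232% in glucose, 11.8% beside 0.941% in myriocin and 7.53% beside 0.542% in fenpropimorph. *RPL19A*, the other member without the motif, had a gap of 1.30 log2 units in WT LiCl and of 0.98 to 1.24 in the other WT cultures. CDS reads enter these gaps. The mean log2 CDS ratio of A over B in polyadenylated and ribo-depleted RNA was −0.52 and −3.07 for *RPS21*. It was 0.61 and −0.92 for *RPS24*, 0.65 and −0.72 for *RPL6*, 1.12 and −0.27 for *RPL31*, and −0.14 and −0.31 for *RPL23*. For *RPL2*, where B is the member named, it was −0.62 and 0.51. Their part in the gaps was not tested.

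In a few members the gap between library types was wider in the WT and intron-deletion LiCl cultures than in the cultures without LiCl, and it was not so wide in the sorted LiCl cells. Narrower gaps in the sorted cells were not particular to these members. Over all 79 members the median log2 ratio of polyadenylated over ribo-depleted retention was −1.16 in WT LiCl. It was 0.42 in sorted high and 0.28 in sorted low cells. For 77 members the gap in WT LiCl lay within 2 log2 units of its mean over the 4 other WT cultures, and the exceptions were *RPS7A* and *RPS0B* (chosen after their values were seen). *RPS7A* had 62.3% in ribo-depleted and 7.02% in polyadenylated WT LiCl, a gap of 3.15 log2 units, against gaps of 0.66 in NaCl, 0.50 in glucose, 0.97 in myriocin and 0.96 in fenpropimorph. The intron-deletion strain in LiCl gave 66.1% and 7.11%, a gap of 3.22, but the gaps of *RPS7A* in sorted high and low cells were −0.40 and 0.03. *RPS0B* had 94.6% and 6.82% in WT LiCl, a gap of 3.79, and 112% and 4.53% in the intron deletion, a gap of 4.62, against gaps of 0.81 in NaCl, 1.27 in myriocin and 0.87 in fenpropimorph, while glucose was wide too, at 3.21. In sorted high and low cells the *RPS0B* gaps were 1.32 and 2.23. In ribo-depleted RNA both introns had higher levels in WT LiCl than in the cultures without LiCl. CDS reads enter these gaps as well, and the members' median CDS level in WT LiCl was lower in ribo-depleted than in polyadenylated RNA. The *RPS0B* intron had 50.6 CPM in ribo-depleted WT LiCl, against 16.4 in NaCl, 4.10 in glucose, 14.4 in myriocin and 5.31 in fenpropimorph, and in the polyadenylated libraries 15.1 CPM, against 21.8, 1.26, 16.1 and 6.29. The *RPS7A* intron had 18.4 CPM in ribo-depleted WT LiCl, against 5.51, 2.36, 5.42 and 2.36, and in the polyadenylated libraries 12.3, against 11.3, 6.97, 12 and 4.46. A shift over 1 log2 unit was also found for *RPS6B*, with a gap of 3.10 in WT LiCl, 1.15 above its mean over the other WT cultures, and for the large-subunit gene *RPL20B*, with a gap of 1.35, 1.04 above its mean. In sorted high and low cells their gaps were 1.76 and 1.60 for *RPS6B* and −1.20 and −0.36 for *RPL20B*. For the paralogues *RPS0A*, *RPS7B* and *RPS6A* the gap in WT LiCl lay within 1 log2 unit of that mean, with *RPS7B* at 18.7% and 19.5% in ribo-depleted and polyadenylated WT LiCl.

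**Figure D4:**
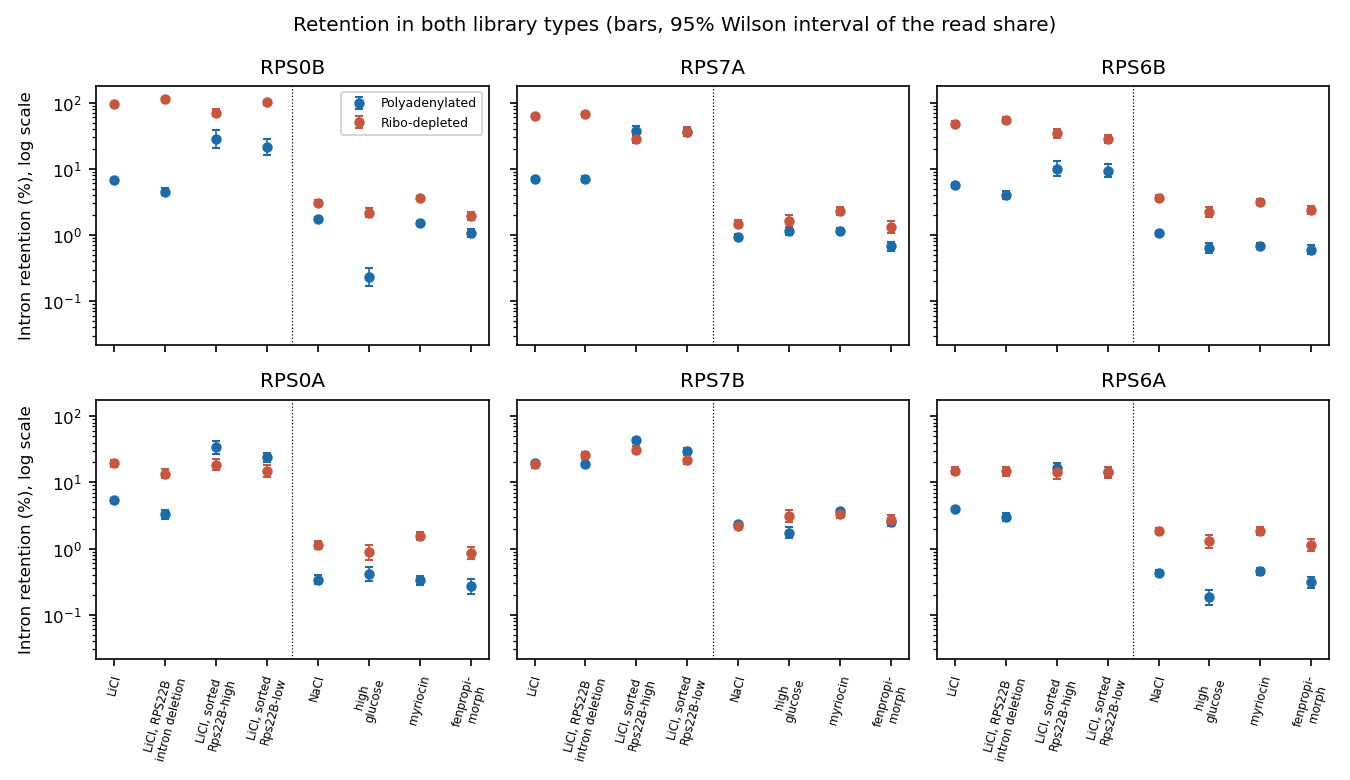
Intron retention in percent on a log scale (y axis) of RPS0B, RPS7A and RPS6B (top) and their paralogues (bottom) in each of the 8 samples (x axis), polyadenylated in blue and ribo-depleted in red; bars are 95% Wilson intervals of the share of intron reads. In WT LiCl the ribo-depleted point of RPS0B lies at 94.6% and that of RPS7A at 62.3%, against 6.82% and 7.02% in polyadenylated RNA, while RPS7B has 18.7% and 19.5%.

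The cultures without LiCl differed among themselves by less. Retention in NaCl was above that in fenpropimorph by a median of 0.84 log2 units in polyadenylated and 0.64 in ribo-depleted RNA, and 22 and 9 members were at least 2-fold higher, against 13.6% and 7.63% of all introns. In glucose it was below that in myriocin, with medians of −1.15 and −0.59, and 47 and 16 members were at least 2-fold lower, against 50.4% and 32.4% of all introns. Lowest among the WT cultures was glucose for 58, fenpropimorph for 20 and NaCl for 1 member in polyadenylated RNA, and fenpropimorph for 46, glucose for 27 and NaCl for 6 in ribo-depleted RNA. With the 5th-percentile density subtracted, 60 and 45 members were at least 2-fold higher in NaCl than in fenpropimorph, and 60 and 39 were at least 2-fold lower in glucose than in myriocin. The lowest culture and the counts after subtraction were not worked out over all introns.

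Sorted GFP-high and GFP-low cells gave medians of opposite sign in the library types. The median log2 ratio of retention, high over low, was 0.16 in polyadenylated (0.10 to 0.22) and −0.07 in ribo-depleted RNA (−0.21 to −0.00). With the 5th-percentile density subtracted, the medians were 0.47 and 0.0035, so the opposite sign was lost. *RPL26B* alone was at least 2-fold lower in polyadenylated RNA (44.1% in high and 105% in low cells), against 0.368% of all introns past this bound, and *RPL17A* alone in ribo-depleted RNA (9.50% in high and 20.2% in low cells), against 0.382% of all introns, and no member was at least 2-fold higher. Of 64 members whose introns averaged 50 reads or more in the sorted libraries, 18 were higher and 14 lower in both types, so the sign differed between types in the other members. Across all 79 members Pearson's r between the ratios of the library types was 0.14. Members with 50 intron reads or more on average and the same sign in both types were ranked by the smaller of their 2 changes. By this rule the highest were *RPS7B*, *RPL33B* and *RPL42B*. *RPS7B* had 42.9% in high and 30.1% in low cells in polyadenylated RNA, a log2 ratio of 0.51 (0.33 to 0.70), and 30.9% and 22.1% in ribo-depleted RNA, a ratio of 0.49 (0.21 to 0.76). *RPL33B* gave ratios of 0.38 and 0.48 and *RPL42B* of 0.32 and 0.36. The lowest by the same rule were *RPL35A* (−0.51 and −0.58), *RPL25* (−0.45 and −0.58) and *RPL17A* (−0.26 and −1.09), of which *RPL25* in polyadenylated RNA rested on 56 and 98 intron reads and had an interval that spans 0 (−0.94 to 0.05).

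The *RPS22B* intron-deletion strain in LiCl had slightly lower retention than the WT LiCl culture. Its median retention ratio to WT LiCl was −0.38 in polyadenylated (−0.43 to −0.33) and −0.14 in ribo-depleted RNA (−0.23 to −0.08), and no member changed 2-fold. Introns of genes that do not encode RPs gave medians of −0.35 and −0.13, so the lower retention was not particular to the members. Of these introns 12 of 183 and 7 of 173 were at least 2-fold lower, and 0 and 3 at least 2-fold higher. With the background density subtracted at the 5th and 10th percentile, the medians were −0.53 and −0.86 in polyadenylated and −0.27 and −0.33 in ribo-depleted RNA. The median log2 change of the members' CDS was −0.40 and −0.24. Strain background differs between these libraries, and its part in the difference was not tested.

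Paralogues shared the LiCl change and differed in level. In 36 of 37 pairs both members were at least 2-fold more retained in WT LiCl over each culture in both library types. The CDS of a pair are 84.3 to 99.2% identical (median 93.7%) and 17 pairs encode the same protein, while the introns are 27.3 to 63.0% identical (median 48.1%) with no shared run over 30 bp. Retention of A over B had an absolute mean log2 ratio over the 16 libraries of 0.57 in the median pair, and 8 pairs exceeded 1. Over all 16 libraries 8 pairs kept their order, among them *RPL16*, *RPL19*, *RPL20* and *RPL36* with A higher and *RPL14* and *RPL33* with B higher. Within a library type, 17 pairs kept their order in the 8 polyadenylated and 21 in the 8 ribo-depleted libraries, and in 3 of them the orders were opposite: *RPL2* had A higher by 0.02 to 1.21 in polyadenylated and B higher in ribo-depleted RNA, with ratios of −2.94 to −1.88, and *RPL17* and *RPS24* had B higher in polyadenylated and A higher in ribo-depleted RNA.

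*RPL36A* exceeded *RPL36B* by a mean of 2.40 log2 units and *RPS21A* exceeded *RPS21B* by 1.81, with *RPS21* ratios of −0.53 to 0.81 in polyadenylated and 2.26 to 4.05 in ribo-depleted RNA. CDS reads per bp, the denominator of retention, went the other way in the mean. Their mean log2 ratio of A over B in polyadenylated and ribo-depleted RNA was −1.86 and −2.73 for *RPL36* and −0.52 and −3.07 for *RPS21*. The smallest mean differences in retention were those of *RPL17* (−0.04), *RPL13* (0.07) and *RPL34* (0.10).

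Only *RPS27* and *RPL27* shifted their ratio by over 1 log2 unit with LiCl in both library types. *RPS27A* over *RPS27B* was 0.46 in polyadenylated WT LiCl, against a mean of 1.77 over the other WT cultures, and −0.70 against 0.34 in ribo-depleted RNA. *RPL27A* over *RPL27B* moved the other way, with 0.12 against −0.88 and 1.14 against −0.04. No pair shifted its CDS ratio by 1 log2 unit or more in both types. In *RPS27* and *RPL27*, however, the CDS ratio, which enters retention as the denominator, moved against the retention ratio. It shifted with LiCl by 0.77 in polyadenylated and 1.01 in ribo-depleted RNA for *RPS27*, and by −0.44 and −0.78 for *RPL27*. Its part in the retention shifts was not tested.

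**Figure D5:**
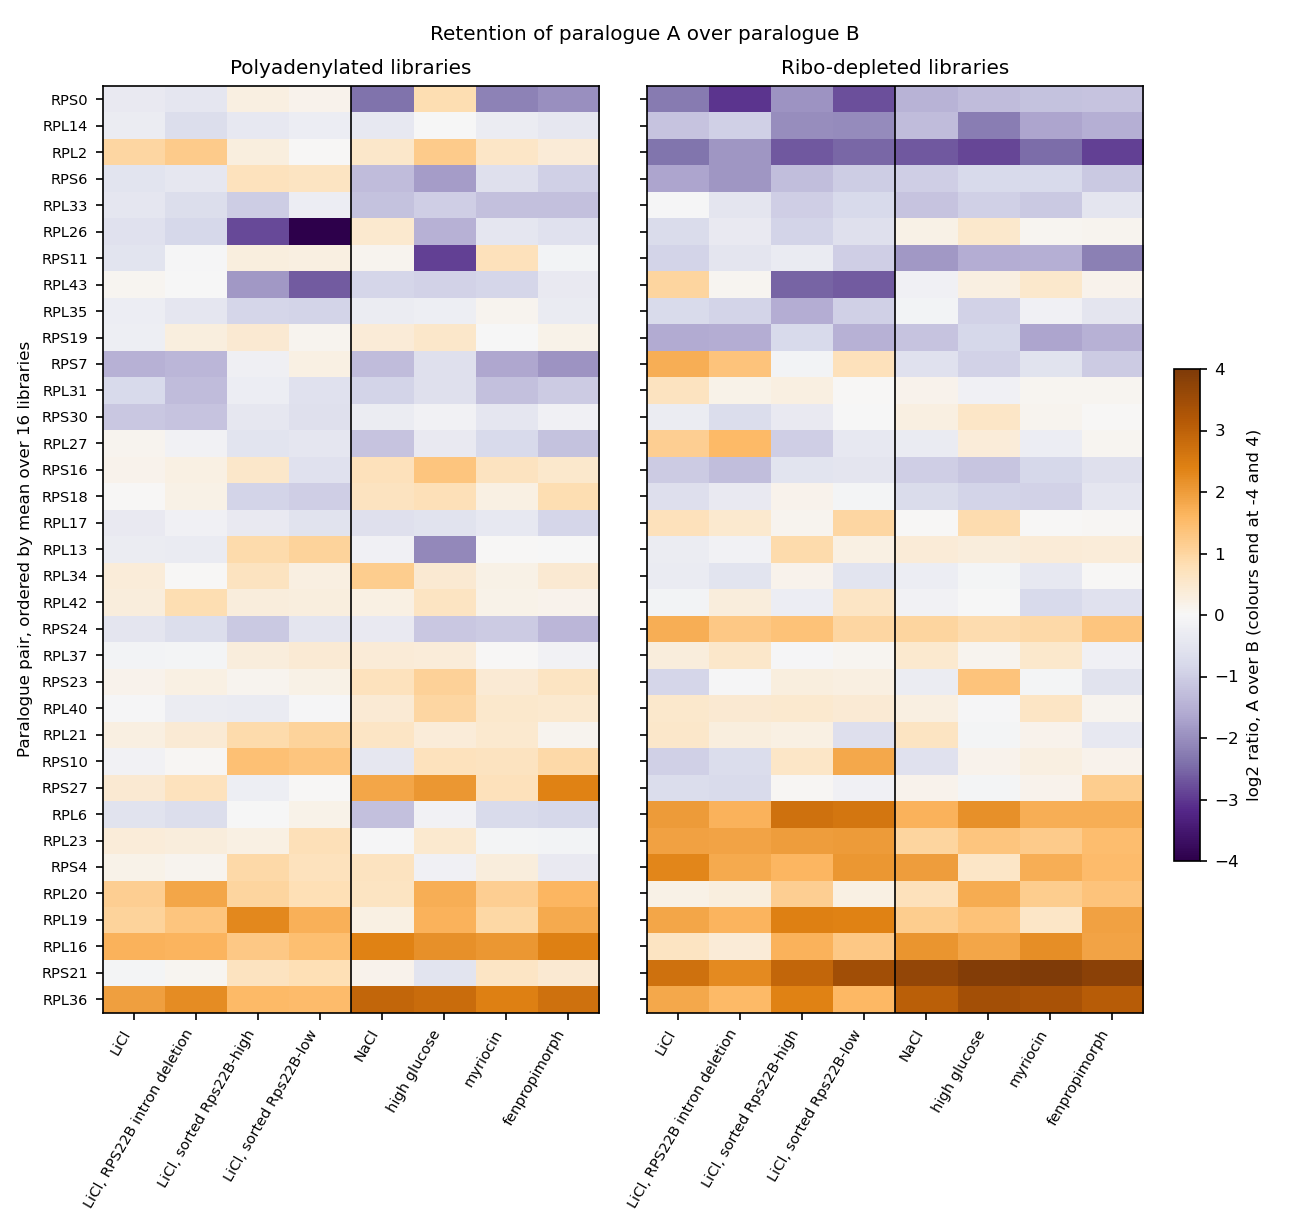
Log2 ratio of the retention of paralogue A over paralogue B for 35 of the 37 pairs (rows, ordered by their mean over 16 libraries) in each library (columns), polyadenylated on the left and ribo-depleted on the right; orange, A more retained, purple, B more retained, colours end at −4 and 4, and the line divides LiCl from the other libraries. RPL36 is orange in all 16 libraries, while RPL2 is orange on the left and purple on the right.

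Retention was compared with features of the introns as a description. Across the 79 members, Spearman's rho between retention and intron length was 0.01 in polyadenylated and 0.06 in ribo-depleted WT LiCl. With the GC content of the intron it was 0.42 and 0.09. With the CDS level per kb it was −0.45 and −0.42 in WT LiCl and −0.38 to −0.57 over all 5 cultures and both types, and CDS reads enter both quantities. By 5′ splice site, median retention in polyadenylated WT LiCl was 6.90% for 62 introns with GTATGT, 8.50% for 10 with GTACGT and 7.82% for 4 with GTATGA and 6.42% for 2 with GTATGC, and 14.1% for *RPL20A* with GTGAGT. In ribo-depleted WT LiCl the order was another, with 18.3% for GTATGT, 17.0% for GTACGT, 20.5% for GTATGA, 8.77% for GTATGC and 18.7% for *RPL20A*. Genes of the large subunit had a median of 7.72% (47 RPL genes) and genes of the small subunit one of 6.82% (31 RPS genes).

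Genes that act on RP transcription and on splicing were counted in the same way. Of 10 regulators of RP transcription in polyadenylated RNA, 1 was at least 2-fold higher in LiCl than in myriocin (*CRF1*, which encodes a corepressor of RP genes, at 1.57) and 1 higher than in fenpropimorph (*SCH9*, a kinase under the TORC1 complex, at 1.09), against 15% and 13.2% of all CDS, and none was 2-fold lower. In ribo-depleted RNA *CRF1* was at 1.69 over myriocin, and none of the 10 was 2-fold higher over fenpropimorph, where *IFH1*, a coactivator of RP genes, was the highest at 0.97. The median changes of the regulators in polyadenylated RNA were −0.09 and 0.26. Of 45 splicing and intron decay genes none was 2-fold higher, while 2 were at least 2-fold lower in LiCl than in myriocin and 1 lower than in fenpropimorph, against 14.7% and 11.9% of all CDS. They were *SUB2*, an RNA helicase of splicing and mRNA export, at −1.52 and −1.22, and *PRP43*, a helicase that takes apart spent spliceosomes, over myriocin alone (named after its value was seen), and the same genes were at least 2-fold lower in ribo-depleted RNA. The medians of the 45 genes in polyadenylated RNA were 0.04 and 0.16, beside −0.02 and 0.03 over all CDS.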

How the data were processed

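The members and gene lists were chosen with earlier results of these data known. The authors aligned paired reads to the R64 genome (HISAT2 and cutadapt are named in the submitters' processing notes) and deposited raw featureCounts read counts for CDS and introns, without normalization. Deposited feature lengths, a further kind of value (bp), served as denominators. The strand setting and the treatment of multi-mapping reads are not given in the sources used here. Counts per CDS and intron were read for 16 libraries, 1 per condition and type.

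Retention is (intron reads + 0.5) per bp over (CDS reads + 0.5) per bp, for genes averaging 10 reads or more in the intron and in the CDS in the 8 libraries of each type, which all 79 members passed in both types. Intron rows without a nuclear CDS (74 of 347) were left out. Levels are CPM on edgeR TMM effective library sizes, and log2 changes carry the pseudocount of 0.5, which understates changes of low counts. With 1 library per condition no model was fitted. "At least 2-fold" is a description, and 95% intervals (Wilson, counting, or order statistics for medians) cover counting error or the spread between members only, and PCR duplicates are not covered. Introns and CDS were located in the RefSeq R64 assembly, where all 79 intron lengths matched, and symbols were found for 6014 CDS.

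Members were named by rule: the 3 extremes of retention in LiCl, of its change, of the sorted comparison, of CDS level per kb and of paralogue differences, and the single-copy genes; others are marked as chosen later or are minima, maxima or exceptions. Lists counted were 10 regulators of RP transcription and 45 splicing and intron decay genes. As alternatives, the pseudocount was 1, the filter was dropped or set to 50 intron reads on average, and use was made of members without a shared 100-bp CDS stretch, paralogues summed, DESeq2 size factors, CPM on total counts and TMM without RP genes. Background subtraction at the 10th and 5th percentile of CDS densities and leaving out the sorted libraries were added after seeing the data. Values of some members are not reported here, though they enter all counts and medians. Calculations were tested on simulated data. Software was Python 3.11.15 with scipy 1.17.1, pandas 2.3.3, matplotlib 3.10.9 and numpy 2.4.6, and R 4.3.3 with DESeq2 1.42.0 and edgeR 4.0.16.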

Additional observations from a re-analysis of the deposited data

How the results depend on the processing

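Of 376 recomputed summary values, 325 kept their direction and size, and of 228 values of single members 152 did, while 75 moved and 1 reversed. The median changes and counts of members moved past these bounds in no case when the pseudocount was 1, when the filter was dropped or set to 50 intron reads on average, or with DESeq2 size factors or TMM without RP genes. Without members that share a CDS stretch, 4 members in ribo-depleted RNA were 2-fold higher in NaCl over fenpropimorph, and with paralogues summed the ribo-depleted LiCl over fenpropimorph median was 3.59. CPM on total counts gave CDS medians in polyadenylated RNA of −2.22 (NaCl), −2.0 (myriocin) and −1.57 (fenpropimorph), and in ribo-depleted RNA of −3.75 (NaCl) and −2.65 (fenpropimorph). Intron medians were then 0.53, 0.82 and 1.93 in polyadenylated and −0.92 and 0.89 in ribo-depleted RNA, with 10 (NaCl) and 24 (myriocin) polyadenylated introns and 34 (fenpropimorph) ribo-depleted introns 2-fold higher.

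Subtracting a background density, chosen after seeing the data, moved most, and counts with it were made over the members alone. At the 10th percentile the retention medians in polyadenylated RNA were 9.34 over glucose, 6.88 over fenpropimorph, 4.63 for NaCl over fenpropimorph (74 members 2-fold higher), −5.94 for glucose over myriocin, 0.67 for sorted high over low and −0.86 for the intron deletion, and 26 members had all LiCl libraries above the others. In ribo-depleted RNA they were 2.52 over NaCl, 4.82 over glucose, 2.52 over myriocin, 4.92 over fenpropimorph, 2.90 for NaCl over fenpropimorph (67 members), −2.02 for glucose over myriocin (61 members 2-fold lower) and −0.33 for the deletion, with 21 members separated. *RPL40B* (−2.81) then reversed over myriocin. At the 5th percentile the values were 4.50, 4.0, 1.35 (60 members), −1.72, 0.47, −0.53 and 46 members in polyadenylated RNA, in the same order. In ribo-depleted RNA they were 2.67 over NaCl, 3.71 over glucose, 3.87 over fenpropimorph, 1.11 for NaCl over fenpropimorph (45 members), −0.99 for glucose over myriocin (39 members), −0.27 for the deletion and 46 members, and sorted high over low reversed to 0.0035. The cause was not tested. Leaving out the sorted libraries, also chosen after seeing the data, changed neither separation count of the members. No paired analysis was possible because the labels give no replicates and each condition has 1 library per type, so conditions share no replicate number. The library types of a sample come from the same RNA and were compared within each sample, as gaps with no test. Depth limits the introns most in sorted cells, glucose and fenpropimorph.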
